A study of Rattus norvegicus with 12 samples.

Results

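The genes of 3 chemokines, Ccl2, Ccl7 and Ccl12, and of their receptor Ccr2 were followed in the colon of 12 male Wistar rats. They were found by name among the 26514 gene names of the arrays, and each was measured by 1 of the 30367 probes. These 4 genes were chosen by name with the signals of these arrays already known, including the differences of Group M against Group C and of Group D against Group M. Those differences are therefore given as a description, without a test.

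The comparisons ask how neonatal maternal separation (NMS) and the probiotic mixture VSL#3 go with gene expression in the adult colon. In Group C (rats C1 to C4) pups were handled normally and then given placebo each day by gavage from day 3 to day 60. The gavage volume was 100 µL. In Group M (rats M5 to M8) pups were taken from the dam for 180 min a day between day 2 and day 14 and given the same placebo. In Group D (rats D9 to D12) pups were separated in the same way and given VSL#3 in place of placebo over the same days. Every rat of the 3 groups underwent colorectal distension (CRD) and was killed on day 60, so that no array shows a colon without distension. Each rat gave 1 array, and the labels do not say which rats were litter mates.

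Ccl2, Ccl7 and Ccl12 belong to the monocyte chemoattractant proteins, small secreted proteins that stromal cells, endothelium and macrophages make when cytokine or microbial signals reach them. CCR2, the G protein-coupled receptor that binds them, is carried above all by classical monocytes, which need it to leave the bone marrow and to enter tissue. In the gut wall these monocytes replace resident macrophages in health and gather in larger numbers during inflammation, and CCL2 and CCR2 are also known from sensory neurons in pain models.

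The signal of each gene came from 1 oligonucleotide of 60 bases, and since the chemokine genes are related in sequence the first 30 bases of each are shown to let their difference be seen. No capitals are used, because no base within them was singled out. They are read 5′ to 3′ and lie on the + strand of the rn4 build of the rat genome, the probes of Ccl2 at chr10:70257919-70257978, Ccl7 at chr10:70268674-70268733, Ccl12 at chr10:70322447-70322506 and Ccr2 at chr8:128893805-128893864.
Ccl2: tttatttctctgtgaatcctggttcaacac
Ccl7: ttagacatgaaaacttcaactccaaagccc
Ccl12: ccttccccatggacagtgcgatagttattt
Ccr2: tctgcaaacaatgcccagttttctataggg
Over their full length any pair of these probes shared a run of at most 8 bases, and no other probe of the array shared a run of 20 bases with any of them.

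All 4 genes were well above background on all 12 arrays, with no outlying or saturated spot. Ccl2 was printed in 10 spots on each array, which varied by 2.52% to 7.01% (coefficient of variation), and the others in 2 spots. The 2 spots differed most where signals were low. Their coefficient of variation reached 32.2% for Ccl12 and 70.2% for Ccr2, the latter in rat M6. Values below are log2 signals relative to the 75th percentile of the array, on which scale 0 is the level of that percentile, and they compare rats for 1 gene but not genes with each other. The 75th percentile ranged from 1434 to 1953 units of brightness. The lowest signals well above background lay between -8.02 and -7.46, and Ccr2 came within 0.96 of that limit. Groups C and M shared 1 slide, each on its own row of arrays, and Group D was on another slide and scan. Group and slide, and for Groups C and M group and row, cannot be told apart.

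Ccl2 had log2 signals of -0.91, 1.40, -0.55 and -1.08 in rats C1 to C4 and of 2.78, 1.11, 4.71 and 2.93 in rats M5 to M8. In Group D it had -0.87, -0.90 and -1.57 in rats D9 to D11 and 2.73 in rat D12. Rats M5, M7 and M8 thus lay above every rat of Group C, M6 lay just below C2, and D12 lay among the rats of Group M. The means were -0.28 ± 1.15 in Group C and 2.88 ± 1.47 in Group M (SD, n = 4 each), and -1.11 ± 0.40 over rats D9 to D11 (SD, n = 3). Rat D12 is shown throughout but not among the 11 arrays of the main comparison. The study's own comparisons also left this rat out, and its methods give no reason.

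Ccl7, a neighbour of Ccl2 that also attracts other leukocytes through further receptors, followed it closely. Its log2 signals were -2.59, -1.03, -2.47 and -3.53 in rats C1 to C4 and 0.60, -0.72, 2.38 and 0.81 in rats M5 to M8. In Group D they were -2.02, -2.65 and -3.32 in rats D9 to D11 and -0.12 in rat D12. Every rat of Group M lay above every rat of Group C, by a narrow gap between M6 and C2, and D12 lay above all of Group C and above M6. Over the 12 rats Ccl2 and Ccl7 correlated with r = 0.98, and with r = 0.97 once the mean of its group was taken from each value. This r is a description, and its points share the array of each rat.

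Ccl12, the chemokine named for a mouse protein of the same family, showed another order. It had -4.25, -2.61, -3.71 and -3.99 in rats C1 to C4 and -2.21, -4.08, -1.05 and -2.88 in rats M5 to M8. In rats D9 to D12 it had -5.36, -4.71, -5.57 and -5.81. Groups C and M overlapped, whereas all rats of Group D, D12 among them, lay below every rat of both other groups. The means were -3.64 ± 0.72 in Group C, -2.55 ± 1.26 in Group M (SD, n = 4 each) and -5.21 ± 0.45 over rats D9 to D11 (SD, n = 3).

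The receptor gene Ccr2 set Group M apart from both other groups. It had -6.20, -5.72, -6.07 and -6.67 in rats C1 to C4 and -5.10, -5.57, -4.48 and -5.10 in rats M5 to M8. In rats D9 to D12 it had -6.26, -6.66, -6.28 and -6.56. All of Group M lay above all of Group C and all of Group D, with M6 nearest to C2, and Groups C and D overlapped. The value of M6 came from 2 spots with a coefficient of variation of 70.2%, so its place above Groups C and D is uncertain. In a bulk sample such as this, fewer monocytes and less Ccr2 RNA in each monocyte cannot be told apart.

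**Figure D1:**
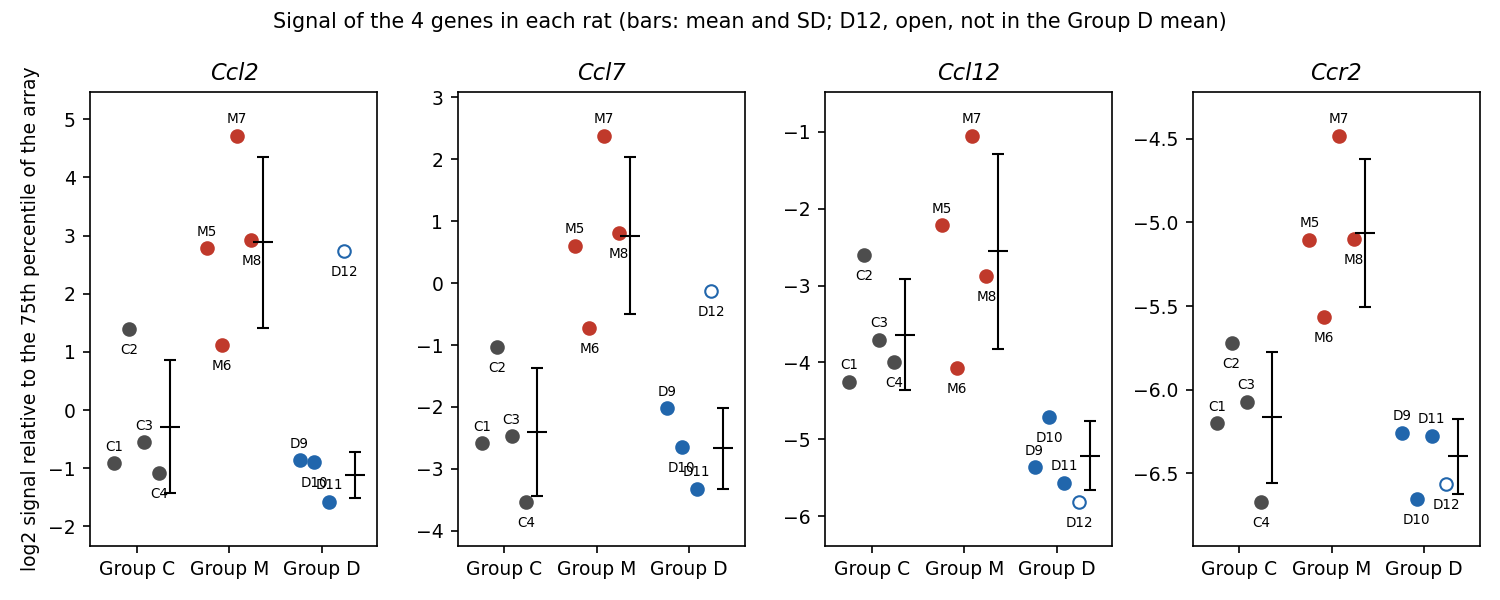
Log2 signal of each gene (relative to the 75th percentile of the array, each panel with its own scale) in every rat of Groups C, M and D; bars give mean and SD, and rat D12 is open and not in the mean of Group D. D12 lies at 2.73 for Ccl2, among Group M, but at -5.81 for Ccl12, the lowest of the 12 rats.

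Between Group M and Group C, the mean log2 signal was 3.17 higher in Group M for Ccl2 (standard error 0.73, 9.0-fold) and 3.17 higher for Ccl7 (standard error 0.67, 9.02-fold). It was 1.08 higher for Ccl12 (standard error 0.58) and 1.1 higher for Ccr2 (standard error 0.25), which is 2.12-fold and 2.15-fold. The differences of Ccl2, Ccl7 and Ccr2 were larger than the SD of either group, and that of Ccl12 was smaller than the SD of Group M. With a background correction by normexp, which shrinks dim signals, the difference of Ccr2 was 0.35 and that of Ccl7 2.89. Without rat M7 the difference of Ccl12 was 0.58, and without rat M6 it was 1.59.

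Between Group D (D9 to D11) and Group M, all 4 genes were lower in Group D, by -4.00 for Ccl2 (standard error 0.79, 16.0-fold), -3.43 for Ccl7 (standard error 0.72, 10.8-fold), -2.66 for Ccl12 (standard error 0.63, 6.31-fold) and -1.34 for Ccr2 (standard error 0.27, 2.52-fold). With rat D12 included, the differences were -3.04 for Ccl2, -2.80 for Ccl7, -2.81 for Ccl12 and -1.38 for Ccr2. Adding D12 thus made the differences of Ccl2 and Ccl7 smaller and those of Ccl12 and Ccr2 slightly larger. By normexp the difference of Ccl12 was -1.74 and that of Ccr2 -0.43.

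Between Group D and Group C, Ccl12 stood apart from the others. It was lower in Group D by -1.57 (standard error 0.63, 2.98-fold) over 11 arrays and by -1.72 (3.30-fold) over 12, with no overlap in either case, and by -0.86 with normexp. For Ccl2 the difference was -0.83 (standard error 0.79) without rat D12 and 0.13 (standard error 1.0) with it, and for Ccl7 it was -0.26 (standard error 0.72) and 0.38 (standard error 0.79). For Ccl7 it was also 0.20 without rat C2 and 0.07 without rat D11. For Ccr2 it was -0.23 (standard error 0.27). The differences of Ccl7 and Ccr2 without D12 were smaller than their standard errors, and the sign of Ccl2 and Ccl7 turned with D12.

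**Figure D2:**
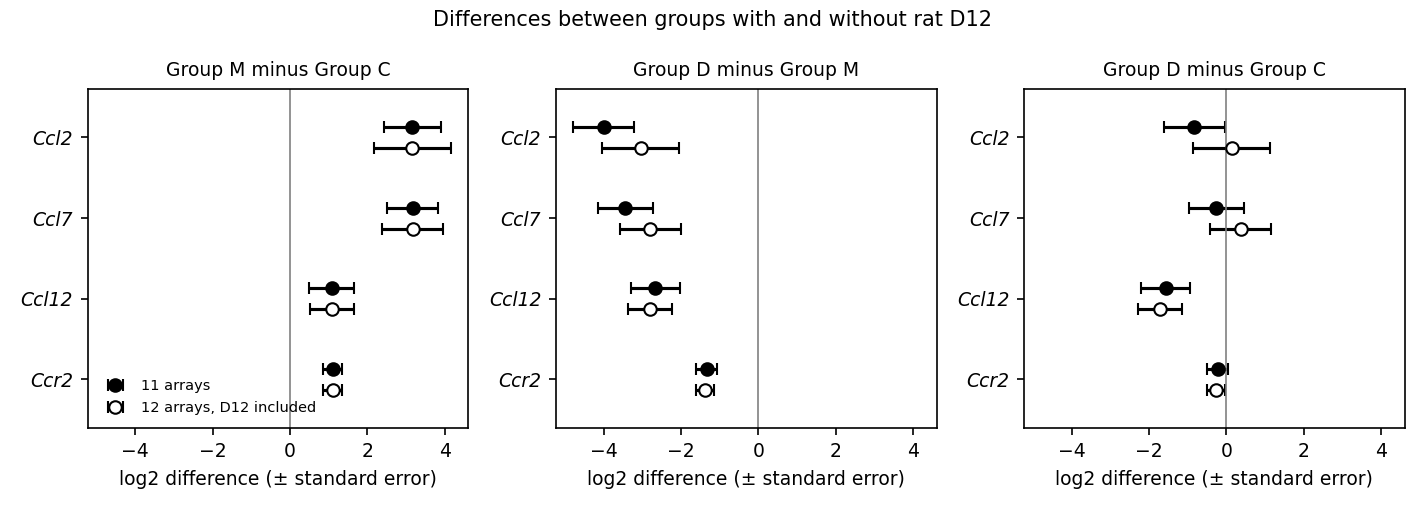
Log2 difference of each gene between groups with its standard error, over 11 arrays (filled) and over 12 arrays with rat D12 (open). Ccl2 moves from -4.00 to -3.04 in Group D minus Group M when D12 is added, while Ccl12 and Ccr2 move only to -2.81 and -1.38.

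At the threshold used over all probes (limma, adjusted p of at most 0.05 and a 2-fold difference), 0 of the 4 genes were called in each comparison. Of all probes it called 0.165% in Group M against Group C, 0.128% in Group D against Group M and 0.00659% in Group D against Group C. The criterion of the methods was an analysis of variance with a Tukey test and a 2-fold difference, with no adjustment. It was met by Ccl2, Ccl7 and Ccr2 in Group M against Group C, where 1.37% of probes met it upwards. In Group D against Group M all 4 genes met it, with 1.57% of probes downwards, and in Group D against Group C none did, with 0.171% of probes downwards. Not overlapping were 2 of the 4 genes in Group M above Group C, against 4.18% of probes, and 4 of the 4 in Group D below Group M, against 7.38%. For Ccr2 this depends on M6, whose 2 spots had a coefficient of variation of 70.2%. In Group D below Group C it was Ccl12 alone, against 4.02%. With rat D12 they were Ccl12 and Ccr2 in Group D below Group M, against 2.48%, and Ccl12 in Group D below Group C, against 2.52%. The genes were chosen with these differences known, so nothing is read from the comparison of the counts.

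Whether the 4 genes were called depended on rat M6 and on the processing. Without M6, limma called Ccl2, Ccl7 and Ccr2 in Group M against Group C and all 4 genes in Group D against Group M, together with 5.84% and 6.51% of all probes. With array quality weights it called the same genes, together with 6.83% and 6.79% of probes. With all 11 arrays, normexp called Ccl7 in the first comparison, together with 0.247% of all probes. In the second it called Ccl2 and Ccl7, together with 0.3%. A filter on dim probes called Ccl2, Ccl7 and Ccr2 in the second, together with 0.672% of the probes it kept. M6 lay below the other rats of Group M by -2.36 for Ccl2, -1.98 for Ccl7, -2.03 for Ccl12 and -0.67 for Ccr2.

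Rat D12 was high for some of the 4 genes and low for others. Against the mean of D9 to D11 it was 3.85 higher for Ccl2 (14.4-fold) and 2.54 higher for Ccl7 (5.82-fold), but lower by -0.60 for Ccl12 and by -0.17 for Ccr2. Against the mean of Group M it differed by -0.15 for Ccl2 and -0.89 for Ccl7, and by -3.26 for Ccl12 and -1.5 for Ccr2. Of the 20305 probes well above background on every array, 31.9% were higher in D12 than in each of D9 to D11 and 42.4% were lower. Over 11 rats Ccl2 correlated with Ccr2 at r = 0.97 and with Ccl12 at r = 0.91, and over 12 rats at r = 0.79 and r = 0.66. For Ccl12 and Ccr2 themselves r was 0.84 over 11 rats and 0.85 over 12. These values include the differences between groups. Taken within groups, r of Ccl2 with Ccr2 was 0.86 over 11 rats and 0.50 over 12.

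**Figure D3:**
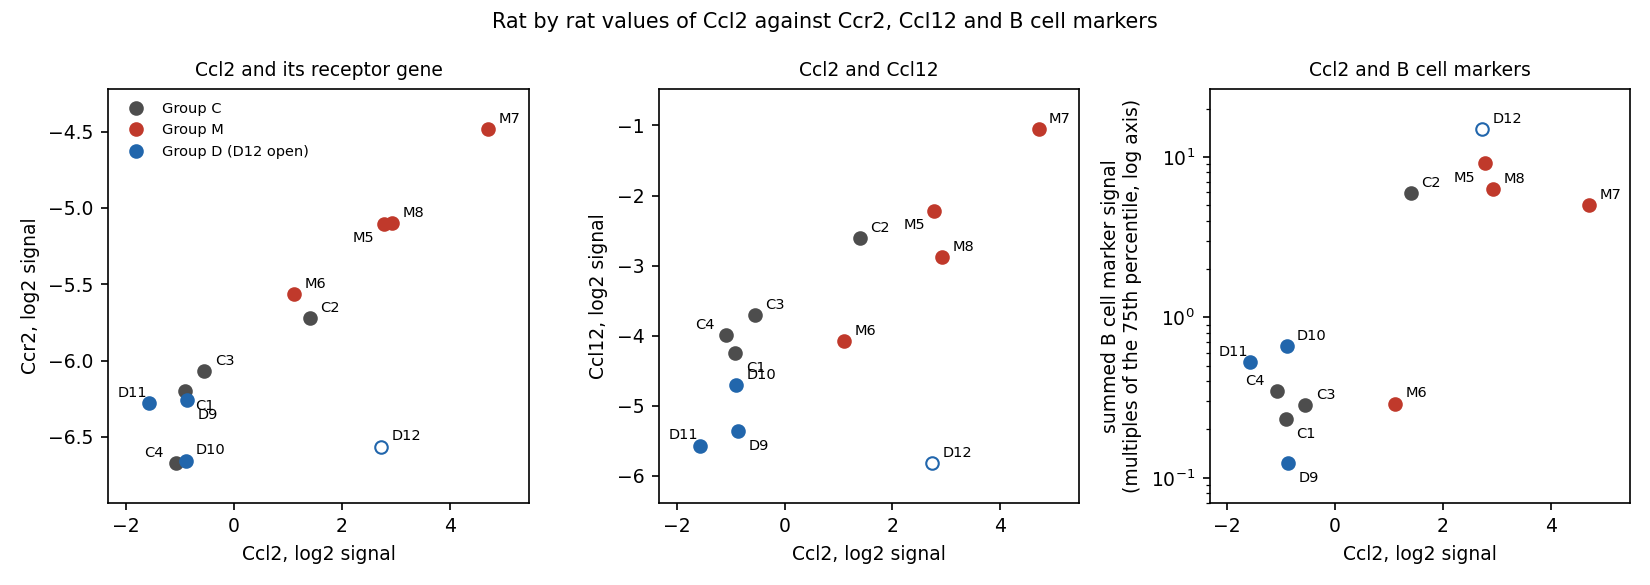
Each point is 1 rat, with the log2 signal of Ccl2 on the horizontal axis and Ccr2, Ccl12 (log2 signals) or the summed signal of 6 B cell markers (log axis) on the vertical axis. D12 (open) combines high Ccl2 (2.73) with low Ccr2 (-6.56) and Ccl12 (-5.81) and has the highest B cell sum (14.9), while M6 has a B cell sum of 0.29 with Ccl2 at 1.11.

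Genes of lymphocytes, and of several other leukocytes, were high in the rats with high Ccl2. The summed signal of the B cell markers on the array (6 of 8 listed, such as Cd79b and Ms4a1), in multiples of the 75th percentile, was 14.9 in D12, 9.09 in M5, 6.29 in M8, 5.96 in C2 and 5.00 in M7. In the other 7 rats it ranged from 0.124 to 0.661. The 5 rats with these high sums were also the 5 with the highest Ccl2, although M7, with the highest Ccl2, had the lowest of the 5 sums. The sums of the monocyte, macrophage, neutrophil and dendritic cell markers were highest in the same 5 rats, so this was not particular to lymphocytes. The sum of the T cell markers (9 of 9 listed) was 0.704 to 5.22 in Group C, 0.691 to 4.57 in Group M, 0.675 to 1.24 in D9 to D11 and 9.77 in D12. All 6 B cell markers were well above background on at least 2 arrays and 2 of them, Cd79b among these, on all 12.

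Rat M6 was the rat of Group M with a low B cell sum, 0.29, like C1, C3 and C4 (0.231 to 0.347). At that sum M6 had Ccl2 at 1.11, where C1, C3 and C4 had -1.08 to -0.55, and Ccl7 at -0.72, where they had -3.53 to -2.47. Its Ccr2 was -5.57, above their -6.67 to -6.07, but came from 2 spots with a coefficient of variation of 70.2%. Only its Ccl12, at -4.08, fell within their range of -4.25 to -3.71. D12 had the highest B cell sum of all rats and the lowest Ccl12, whereas C2, with a high sum, had the highest Ccl12 of Group C, -2.61. The part of lymphoid tissue in the differences of the 4 genes between groups was not tested.

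Genes listed as monocyte markers, some of them also on the list of neutrophil markers, were measured beside Ccr2. Of 18 monocyte markers 16 were on the array, and all 16 had a positive difference in Group M against Group C, with a median of 1.08 (0.95 over the 13 well above background on every array). Over 23159 probes above background on at least 2 arrays the median was -0.02. Of these probes 12.5% were higher and 15.8% lower at an unadjusted p of at most 0.05 in Group M against Group C, and 13.8% were higher and 12.9% lower in Group D against Group M, and the counts of each list at that p are to be read beside these shares. In Group M against Group C none of the 16 monocyte markers was called by limma. At an unadjusted p of at most 0.05 there were 8, and Vcan (versican) and S100a4 met the criterion of the methods. In Group D against Group M 15 of the 16 had a negative difference with a median of -1.49, none was called, 10 reached that p and the same 2 genes met the criterion. Their summed signal was 56.9 to 94.6 in Group C, 67.2 to 138 in Group M, 63.6 to 67.9 in D9 to D11 and 106 in D12. Like the other sums, it follows the brightest probes and is no measure of cell number. Here these were Plac8 (log2 signals of 5.14 to 5.87) and Lyz2 (2.98 to 5.63).

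The monocyte markers with the largest differences were S100a8 (2.10), Clec4d and S100a9 (1.75). Of the monocyte markers, S100a8, S100a9, Csf3r and Fpr1 were also on the list of neutrophil markers. S100a8, a calcium-binding alarmin, had 0.15 in M7 and from -5.36 to -2.79 in all other rats, so that its difference was 1.16 without M7. S100a9, its partner, had 1.28 in M7 and -4.03 to -1.40 elsewhere, and its difference was 0.82 without M7. Clec4d, a lectin receptor, was well above background in 2 rats of Group M alone. With Group C set to the lowest signal well above background, Clec4d was 2.0-fold higher in Group M. Over the alternatives of processing, its log2 difference in Group M against Group C ranged from 0.44 to 1.81. Their limma adjusted p values in Group M against Group C were 0.190 for S100a8, 0.199 for Clec4d and 0.265 for S100a9. The neutrophil list (13 genes, 9 above background on at least 2 arrays) had a median difference of 1.74, with 0 called, 4 at an unadjusted p of at most 0.05 and 1 (Il8rb) by the criterion. Its sum was 0.866 to 2.55 in Group C, 0.977 to 5.83 in Group M, 0.89 to 1.05 in D9 to D11 and 4.35 in D12.

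Resident macrophage markers had smaller median differences than the monocyte markers in both comparisons with Group M. Of 14 on the array, 13 were above background on at least 2 arrays, with a median difference of 0.15 in Group M against Group C and -0.46 in Group D against Group M. None was called or met the criterion, both of which need a 2-fold difference that no macrophage marker reached. At an unadjusted p of at most 0.05, 3 were higher and 1 lower in the first comparison and 8 lower in the second, beside 12.5%, 15.8% and 12.9% of all probes. Of the 16 monocyte markers 10 were lower at that p in the second. In Group D against Group C all 13 macrophage markers were below 0, with a median of -0.28. There 5 were lower and 0 higher at that p, beside 3.39% and 3.14% of all probes. The macrophage sum was 20 to 26.7 in Group C, 23 to 29.8 in Group M, 18.3 to 20.4 in D9 to D11 and 28.8 in D12. In Group M against Group C, 8 of the 13 were above 0, such as Cd163 (0.52) and Cd68 (0.44), and 5 were below 0. Csf1r, the receptor for the growth factor of monocytes and macrophages, differed by 0.00 there and by -0.52 in Group D against Group M. Cx3cr1, a receptor of resident macrophages and patrolling monocytes, differed by -0.31 and 0.06.

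The 3 chemokine genes lie in 1 cluster on chromosome 10, and the probes within 250 kb of them allow a look at their neighbours. There were 7 such probes, those of the 3 genes included, and limma called none in either comparison with Group M. Ccl11 (eotaxin, which attracts eosinophils), between Ccl7 and Ccl12, had log2 signals of 2.4, 2.88, 2.4 and 1.94 in rats C1 to C4 and of 4.43, 2.32, 3.68 and 3.95 in rats M5 to M8. In rats D9 to D12 it had 2.17, 2.20, 2.02 and 1.75, D12 again being the lowest of all rats. Its differences were 1.19 in Group M against Group C (limma adjusted p = 0.129) and -1.46 in Group D against Group M (adjusted p = 0.11). Ccl1, beyond Ccl12, was well above background on 3 arrays only. Within this cluster D12 was thus near Group M for Ccl2 and Ccl7 and at the low end for Ccl11 and Ccl12.

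Ccr2 lies among other receptor genes on chromosome 8, with 6 probes within 250 kb, its own included, and none called. Ccr1, a further receptor for Ccl7, differed by 1.41 in Group M against Group C (limma adjusted p = 0.105) and by -1.81 in Group D against Group M (adjusted p = 0.0830), and its D12 value, -3.64, was near the highest of Group C, -3.65. Ccr3, the eotaxin receptor, was well above background in 3 rats of Group M and in no other rat. With Group C set to the lowest signal well above background, Ccr3 was 2.6-fold higher in Group M. Over the alternatives of processing, its log2 difference in Group M against Group C ranged from 0.35 to 1.80. Ccr1l1 differed by 0.05.

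**Figure D4:**
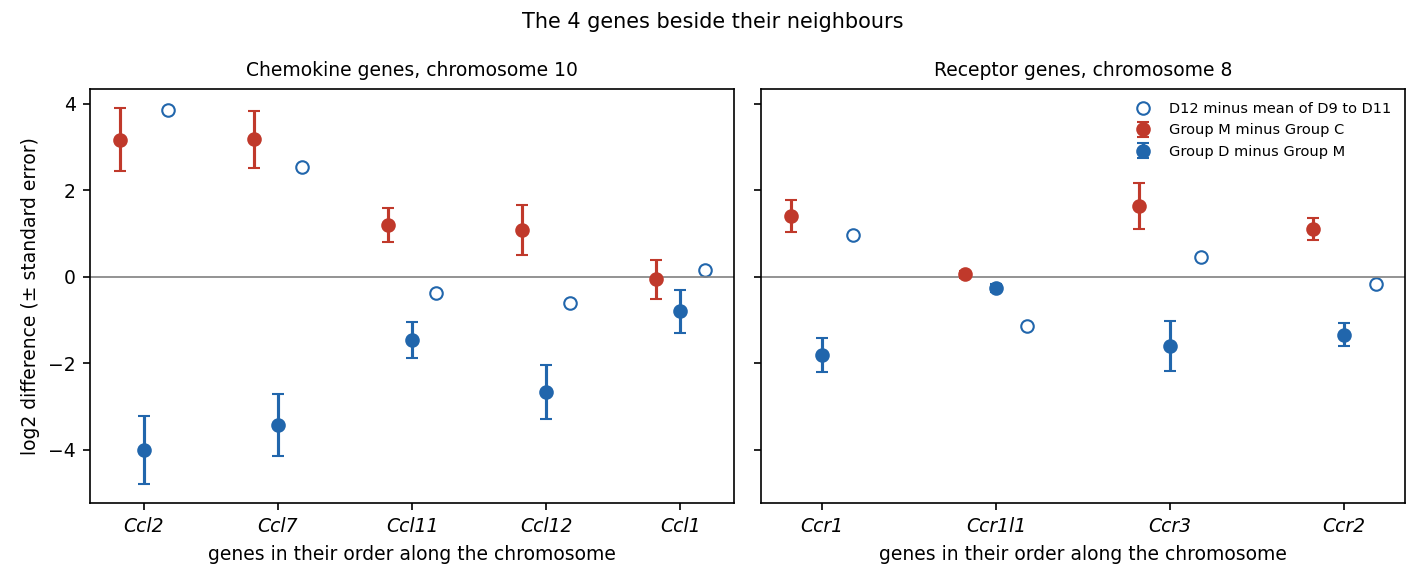
Log2 differences with standard errors over 11 arrays for chemokine genes of chromosome 10 and receptor genes of chromosome 8 in their order, with the difference of rat D12 from the mean of D9 to D11 (open). D12 is 3.85 and 2.54 above for Ccl2 and Ccl7 but below for Ccl11 and for Ccl12 (-0.60).

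Since Ccl7 and Ccl12 went apart in D12 and in Group D against Group C, the 150 bases before the start of each are shown, from RefSeq on the GRCr8 build, both on the + strand, Ccl7 at chr10:67513945-67514094 and Ccl12 at chr10:67567726-67567875. Capitals mark matches to the motifs searched.
Ccl7: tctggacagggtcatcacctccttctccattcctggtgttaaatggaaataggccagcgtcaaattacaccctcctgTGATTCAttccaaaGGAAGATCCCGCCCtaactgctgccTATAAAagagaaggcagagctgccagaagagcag
Ccl12: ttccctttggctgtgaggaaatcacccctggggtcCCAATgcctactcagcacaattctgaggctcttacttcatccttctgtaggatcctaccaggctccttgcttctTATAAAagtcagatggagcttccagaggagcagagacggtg
Searched on both strands from 250 bases before to 50 after the start were the NF-kappaB motif (by name), AP-1 (TGANTCA), the GC box (GGGCGG), the TATA box (TATAAA) and the CCAAT box (CCAAT). They occur in 7.51%, 7.33%, 33.1%, 14.2% and 37.5% of 33469 rat promoters of that length. Ccl7 held AP-1 at 73 to 67 bases before the start, NF-kappaB at 59 to 50, a GC box at 51 to 46 that overlaps it, and a TATA box at 34 to 29. Ccl12 held a TATA box at 41 to 36 and CCAAT at 115 to 111 and, outside the stretch shown, at 247 to 243. The promoter of Ccr2 held no match. Promoters were matched for 3 of the 4 genes, Ccl2 not being among them. These matches describe letters and show no binding.

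The signals that switch on such chemokines were taken from a list of 23 inducers, of which 21 were on the array and 20 above background on at least 2 arrays. None was called by limma, and 8 were higher and 1 lower at an unadjusted p of at most 0.05 in Group M against Group C. The median difference was 0.42, and -0.29 in Group D against Group M. Fosl1, which codes for a subunit of AP-1, had the largest difference of the list. It had -7.35, -1.99, -6.73 and -7.24 in rats C1 to C4 and -0.80, -1.26, 0.94 and -0.02 in rats M5 to M8. In rats D9 to D12 it had -4.38, -6.70, -7.31 and 0.48, so that D12 was again among Group M, and M6 was the lowest rat of Group M but above every rat of Group C. Its differences were 5.54 in Group M against Group C (limma adjusted p = 0.0894) and -5.85 in Group D against Group M (adjusted p = 0.0812), with 2 rats of Group C and 1 of D9 to D11 well above background. Fosl1 passed the limma threshold in both comparisons without rat C2, without rat M6, with array weights and with normexp, which gave 3.45 and -3.83.

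Of the cytokines that act on stromal cells, Il6 was well above background in M7 and D12 alone (-4.56 and -4.88). With Group C set to the lowest signal well above background, Il6 was 2.13-fold higher in Group M. That fold rests on M7 and on values of Group M near background. Over the alternatives of processing, the log2 difference of Il6 in Group M against Group C ranged from 0.41 to 2.01. Il1r1, the receptor for interleukin-1, differed by 1.33 in Group M against Group C (limma adjusted p = 0.11) and by -1.26 in Group D against Group M (adjusted p = 0.13). With normexp these differences of Il1r1 were 0.42 and -0.40. By the criterion of the methods Fosl1, Il6 and Il1r1 were higher in Group M than in Group C and Fosl1 lower in Group D than in Group M. The summed inducers were 28.1 to 30 in Group C, 31.4 to 46.8 in Group M, 28.5 to 30.7 in D9 to D11 and 44.5 in D12.

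Among 16 other ligand genes on the array, the median difference was 0.72 in Group M against Group C, with 10 above 0, and -0.91 in Group D against Group M, with 10 below 0. Limma called 0 in the first comparison, with 6 higher and 1 lower at an unadjusted p of at most 0.05 and 0 by the criterion. It called 1 in the second, where 2 were higher and 7 lower at that p and 5 were lower and 1 higher by the criterion. That 1 was Ccl5 (RANTES, a T cell and monocyte attractant), which rose, against the direction of Ccl2. Ccl5 had -0.97, -1.43, -1.09 and -1.14 in rats C1 to C4, -1.52, -0.96, -1.84 and -1.80 in rats M5 to M8 and 0.27, -0.35 and -0.03 in D9 to D11. D12, with -1.30, lay below D9 to D11 and within the ranges of both other groups. Its difference in Group D against Group M was 1.49 (limma adjusted p = 0.0489) over 11 arrays and 1.18 over 12, no longer called. The call was lost in 9 of the 11 fits that left out 1 rat, and their differences ranged from 1.34 to 1.68.

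The ligands with the largest differences in Group M against Group C were Ccl19 (2.95, limma adjusted p = 0.404), a homing chemokine of lymphoid tissue, Ccl17 (2.29, adjusted p = 0.161), a T cell attractant, and Ccl3 (1.5, adjusted p = 0.195), an inflammatory chemokine. In Group D against Group M Ccl17 differed by -3.42 (adjusted p = 0.104), Ccl3 by -2.34 (adjusted p = 0.115) and Ccl19 by -3.94 (adjusted p = 0.310). None of these 3 ligands passed the threshold. With D12 included, Ccl19 differed by -2.32 and Ccl3 by -1.62, and Ccl3 by -1.48 with normexp. Ccl19 had 3.54 in D12 and 3.23 in C2, both above every rat of Group M, and its difference in Group M against Group C was 4.67 without C2 and 4.77 without M6. Without rat M6, Ccl17 was called in both comparisons and Ccl3 and Ccl19 in the second.

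Of 13 other receptor genes on the array, 12 were above background on at least 2 arrays, with a median of 0.76 in Group M against Group C and -0.96 in Group D against Group M. Limma called 0, with 5 higher and 1 lower at an unadjusted p of at most 0.05 in the first and 7 lower and 1 higher in the second. By the criterion 2 were higher in the first, Ccr1 among them, and 3 were lower in the second, among them Ccr1 and Ccbp2, a decoy that takes up Ccl2. Csf2rb, a subunit of cytokine receptors of myeloid cells, was well above background in 1 rat of Group C and 3 of Group M and differed by 1.69 (limma adjusted p = 0.194), and by 0.33 with normexp.

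Of 17 adhesion genes, by which monocytes leave the blood, 16 were above background on at least 2 arrays, with medians of 0.47 and -0.65 and 0 called by limma. At an unadjusted p of at most 0.05, 3 were higher and 1 lower in Group M against Group C, and 8 were lower in Group D against Group M, where all probes gave 12.5%, 15.8% and 12.9%. Icam1, the endothelial ligand of leukocyte integrins, met the criterion in both comparisons (1.22 and -1.55), and Selp (P-selectin) and Itgal, the integrin subunit of lymphocytes, in Group D against Group M. Selp differed by 1.39 (limma adjusted p = 0.241) and -2.72 (adjusted p = 0.0994), and Itgal by 1.57 (adjusted p = 0.13) and -1.81 (adjusted p = 0.124). Without M7 the first difference of Selp was 0.80, and with D12 the second of Itgal was -1.14.

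Of 16 genes that carry the signal of chemokine receptors, none was called by limma or met the criterion, with 3 higher in Group M against Group C and 5 lower in Group D against Group M at an unadjusted p of at most 0.05, beside 12.5% and 12.9% of all probes. Their medians were 0.31 and -0.44. Was, Dock2 and Rac2, which act on the actin skeleton of blood cells, were named from this list. Was and Dock2 were each well above background in 2 rats of Group C and 3 of Group M, and their fitted differences of 1.37 (limma adjusted p = 0.361) and 1.23 (adjusted p = 0.382) rest in part on values near background and were 0.30 and 0.27 with normexp. Without C1 they were 0.89 and 0.78, and without M6 2.10 and 1.91. Rac2 was above background in every rat and differed by 0.92 (adjusted p = 0.283), and by 1.39 without M6. The summed signal of the list was 34.1 to 44.2 in Group C, 36.0 to 52.6 in Group M, 36.6 to 40.6 in D9 to D11 and 61.8 in D12.

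**Figure D5:**
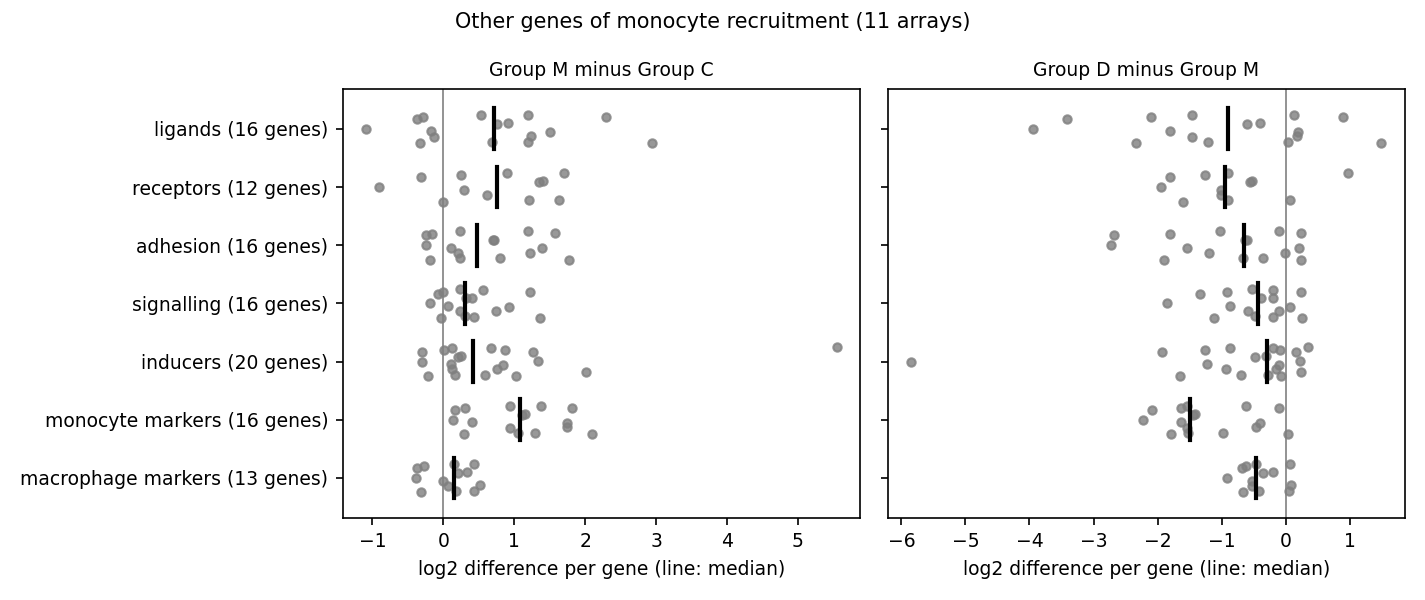
Log2 difference of each gene (points, over 11 arrays) and the median (line) for lists of other ligands, receptors, adhesion, signalling, inducers and markers of monocytes and macrophages, in Group M minus Group C and Group D minus Group M. The monocyte markers have medians of 1.08 and -1.49, and the macrophage markers of 0.15 and -0.46.

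The remaining lists describe which cells the samples held. All 12 epithelium and 8 smooth muscle markers were well above background on every array, as for a sample of the whole colon wall. In Group M against Group C the medians were -0.14 for epithelium, 0.33 for smooth muscle, 0.12 for fibroblasts, -0.06 for endothelium, -0.63 for mesothelium, 0.27 for dendritic cells, 0.91 for T cells, 2.33 for B cells and 1.14 for mast cells. In Group D against Group M they were, in the same order, 0.12, -0.25, -0.24, -0.19, 0.00, -0.60, -1.32, -3.29 and -0.38. Limma called 1 gene of these lists in the 2 comparisons, Hdc (histidine decarboxylase, which makes histamine) of the mast cells, which rose by 1.61 in Group M against Group C (adjusted p = 0.0421). That call was lost in 9 of the 11 fits that left out 1 rat. At an unadjusted p of at most 0.05 there were 8 mast cell markers higher and 1 lower, 0 of the B cell, T cell and fibroblast markers, and 2 mesothelium markers lower in Group M against Group C. The criterion was met in Group M against Group C by 6 mast cell markers, Batf3 and Myocd upwards and Car1 downwards. In Group D against Group M it was met by Tpsab1, Batf3 and Myocd downwards and Car1 upwards.

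The genes whose signals ran most like those of the 4 were sought among 14079 named probes well above background on all arrays. Nearest to Ccl2 over the 12 rats were Ifi204 (r = 0.988), Timp1, an inhibitor of metalloproteinases (r = 0.987), Ebna1bp2, Cd44, a receptor for hyaluronan, Akap2, Acsl4, Tm4sf1, B4galt1, Ccl7 (r = 0.980) and Hspb9. Ccl7 was thus at rank 9, Ccr2 at rank 1530 and Ccl12 at rank 2662. Among the nearest to Ccr2 were Myof (r = 0.963), Klri1, Myocd, Spp1 (osteopontin, r = 0.934), Lmcd1, Zdhhc14, Itgb1, Slfn3 and Farsb (r = 0.922), with Ccl7 at rank 92, Ccl12 at rank 98 and Ccl2 at rank 349. Taken within groups, r with Ccl2 was 0.985 for Ifi204 and 0.973 for Timp1, and r with Ccr2 was 0.940 for Myof and 0.727 for Spp1. All points share the arrays and the differences between groups, so that these values only rank genes by likeness.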

How the data were processed

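Colon RNA of 12 rats (4 a group) was measured on 1-colour (Cy3) Agilent arrays of 62976 spots. The deposited intensity of each spot had, per the file headers, been background-subtracted and detrended by the scanner software, and was linear and not normalized between arrays. The authors' matrix, used as an alternative, holds deposited log2 values with the same quantiles in every column, by a normalization not given in the sources used here. Here control and outlier spots were left out, spots of a probe averaged, and each log2 intensity set relative to the 75th percentile of its array. Of the spots, 75.5% to 77.5% were well above background. A value was missing on some array for 19 of the 30367 probes.

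The 3 groups were fitted in one limma model (version 3.58.1, lmFit, eBayes, R 4.3.3) on 11 arrays, with all 12 as an alternative. P values were adjusted by Benjamini-Hochberg over every probe, and a call needed both an adjusted p not above 0.05 and a 2-fold difference. The number of arrays limits the precision. P values set the differences between groups against the spread between rats within groups, and do not cover litter or slide. The code was tested on simulated data. Matching of the authors' matrix to the arrays was checked, and 12 of 12 columns followed their own array best. The 4 genes, the lists (204 genes, 191 on the array, 1 probe each by the highest mean signal) and the tests were chosen with earlier results of these data known. Named beside the 4 genes were, for the lists of ligands, receptors, adhesion, signalling, inducers and monocyte markers, the 3 genes with the largest difference in Group M against Group C, genes called in any comparison, and the 10 genes most like Ccl2 and like Ccr2. Genes named for meeting the criterion of the methods, Ccl11, Ccr1l1, Csf1r, Cx3cr1, Cd163, Cd68, Plac8 and Lyz2 were chosen after their values were seen. Some genes that the rule names are not reported here. Python 3.11.15 with matplotlib 3.10.9 drew the figures. Alternatives were normexp (offset 50), quantile normalization, the median of the array, the authors' matrix, outlier spots kept, a filter on dim probes, the replicate number as a block, array weights, only the compared groups, other tests and thresholds, and each rat left out in turn.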

Additional observations from a re-analysis of the deposited data

Results flagged for a closer look

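Among the 12 sets of values (4 genes in 3 groups), 1 rat stood far from the rest of its group. It was rat D12 for Ccl2, at 2.73 (log2 signal), where the gap to the next rat of Group D took 0.835 of the range of the group. This share is above the critical value of Dixon's test for 4 rats, which chance passes in about 1 in 20 groups. With 12 sets looked at, 1 such pass can arise by chance, and the genes were chosen with their values known. Nothing is therefore concluded from it. The values of Ccl7, Ccl12 and Ccr2 in D12 did not pass this critical value.

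Rat D12 was not used in the comparisons over 11 arrays. In it, Ccl2 (2.73) and Ccl7 (-0.12) lay above every rat of Group C, whose highest values were 1.40 and -1.03.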

How the results depend on the processing

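The sign of the 4 genes was kept in Group M against Group C and in Group D against Group M under every alternative run. It turned in Group D against Group C for Ccl2 on 12 arrays (0.13) and for Ccl7 on 12 arrays (0.38), without C2 (0.20) and without D11 (0.07), against -0.83 and -0.26. Normexp, which compresses dim signals, gave Ccr2 0.35 in Group M against Group C and -0.43 in Group D against Group M. With each rat left out in turn, Group M against Group C ranged from 2.56 to 3.76 for Ccl2, 2.64 to 3.67 for Ccl7, 0.58 to 1.59 for Ccl12 and 0.91 to 1.27 for Ccr2. Group D against Group M ranged from -4.59 to -3.39, -3.93 to -2.90, -3.17 to -2.16 and -1.50 to -1.14, and Group D against Group C from -1.09 to -0.27, -0.64 to 0.20, -1.83 to -1.23 and -0.40 to -0.08.

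The number of probes called moved far more. For Group M against Group C (50), Group D against Group M (39) and Group D against Group C (2), the criterion of the methods gave 701, 807 and 112, after Benjamini-Hochberg adjustment 1, 1 and 0, array weights 2073, 2063 and 4, only the compared groups 23, 11 and 0, and the first 2 counts were 10 and 4 on 12 arrays and 77 and 145 with the filter on dim probes. Other changes were 28 and 4 for the first and last with the authors' matrix, 14 (median of the array) and 91 (normexp) for the second and 0 (quantile) for the last. Leaving out 1 rat gave 5 to 1772, 1 to 1978 and 0 to 10, the highest without M6, M6 and D9 or D11, the lowest without C1, D10 and, among others, C1. The cause was not tested. Normexp called Ccl7 in Group M against Group C, with 0.247% of all probes. It called Ccl2 and Ccl7 in Group D against Group M, with 0.3%. The filter called Ccl2, Ccl7 and Ccr2 in the latter, with 0.672% of the probes it kept.

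With the replicate number as a block the counts were 1, 1 and 0, and none of the 4 genes was called. Rats with the same number correlated in their deviations by -0.56 to 0.13 over 10 pairs and others by -0.22 to 0.30 over 30 pairs. These ranges show no sign that the numbers pair the rats, but they cannot exclude it, because the pairs share rats.

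Of 18 other genes named from the lists, limma called 11 in Group M against Group C and 14 in Group D against Group M without M6, and 17 and 14 with array weights. The calls of Ccl5 and Hdc were lost in 4 and 2 of 10 other alternatives. Low signal limits Ccr2 most, which came within 0.96 of the lowest signal well above background.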
